A study of Mus musculus with 20 samples.

Results

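The Nr4a nuclear receptors Nr4a1 (Nur77), Nr4a2 (Nurr1) and Nr4a3 (Nor1) were followed through single nuclei RNA-sequencing of the mouse hippocampus. The 3 genes were chosen by symbol out of the 32285 genes of the deposited count files, and their unique molecular identifier (UMI) counts were summed per mouse and per cell class and read by treatment and genotype. Because those same counts decided that the family was of interest, its levels and fold changes are given as a description. Genes past an adjusted threshold in the fits across all genes are counted as calls beside the same share of all genes, no p-value of a member is printed, and the calls are not evidence about the family.

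The Nr4a proteins are transcription factors of the nuclear receptor superfamily whose ligand pocket is closed, so their activity follows mainly from how much of them is made. Their genes belong to the immediate-early genes. Calcium entry and cAMP, acting through CREB and its coactivators, switch them on rapidly in active neurons. In the hippocampus they are known as members of the wave of transcription that follows learning, and Nr4a2 is also known for its part in the making of dopamine neurons.

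All 20 mice were male, 4.5 to 5.5 months old, and were either APP/PS1 (APPSwe/PS1ΔE9) mice, called fAD here, or their wild-type (WT) littermates. By the labels, 6 mice were WT-Awake and 3 fAD-Awake (wake in the labels), 3 were WT-GA and 4 fAD-GA (general anesthesia with isoflurane, begun at 5% and lowered to 1.5%), and 2 WT-KETA and 2 fAD-KETA mice received ketamine at 150 mg/kg with xylazine at 12 mg/kg. Anesthetized mice were killed 3 h after its start. The text of the series gives other group sizes than the labels of the samples, and the labels were used. The labels name a perfusion and the methods of the study a decapitation, so which applied is not known here. In this line the transgenes for mutant human amyloid precursor protein and presenilin 1 are driven by the prion protein promoter. The level of Prnp in CA1-like nuclei was 38.4 to 178 CPM (counts scaled to 1e6 UMIs of the class per mouse; median 75.6) in the 11 mice labelled WT and 61.1 to 489 (median 161) in the 9 labelled fAD. These ranges overlapped, so Prnp did not separate the genotype labels, and genotypes are named as labelled.

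The 20 libraries held 160777 nuclei and 9243992 to 25394891 UMIs each. After doublets and 4 clusters with over 40% of them were left out, 132038 nuclei fell into classes named by marker genes ("CA1-like" and so on) and 14729 into 4 clusters that the markers did not name. Mice 1 to 4 stood apart: mitochondrial UMIs made up 0.939 to 1.78% of their libraries, against 0.0353 to 0.336% in the other 16, and they supplied 94.7% of the nuclei of 1 of the 2 CA1-like clusters and 93.8% of those of 1 of the 3 DG-like clusters. The former held 11.9 to 31.6% of the CA1-like nuclei of the awake and GA groups and 0.121 and 0.0907% of those of WT-KETA and fAD-KETA mice, and the latter 12.0 to 23.8% of DG-like nuclei against 0.161 and 0.255%. Any pair of libraries shared 5 to 35 nucleus barcodes, 0.0975 to 0.407% of the smaller library. The mice are numbered in runs, 1 to 4, 10 to 13, 14 to 17, 18 to 20 and 25 to 29. Each of the first 4 runs holds awake and GA mice. The last holds all 4 KETA mice and awake mouse 29 alone, so KETA and that run cannot be told apart beyond this mouse. The methods state that tissue was processed in batches of 4, each with mice of the WT and fAD awake and GA groups. Which mice formed a batch was not given in the sources used here. By the labels, the runs of mice 1 to 4 and 14 to 17 each hold 1 mouse of each of these 4 groups. The run of mice 10 to 13 holds 3 awake mice and 1 GA mouse, and that of mice 18 to 20 holds 1 awake mouse and 2 GA mice.

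The promoters of the 3 genes are shown because cAMP and calcium act on Nr4a genes through CREB, whose binding site is built from TGACG. Sequences come from the RefSeq promoter table for GRCm38.p6, in which all 3 symbols were found, and run 5′ to 3′ on the strand of the gene, up to the base before the RefSeq start site. Capitals mark TGACG or its reverse complement CGTCA. Nr4a1 is shown at chr15:101266596-101266845 (plus strand), inside its own annotated gene but outside any exon. Nr4a2 is shown at chr2:57124004-57124253 (minus strand), outside any gene. Nr4a3 is shown at chr4:48045055-48045152 (plus strand), the 98 of its 250 bases that lie outside an annotated exon.
Nr4a1: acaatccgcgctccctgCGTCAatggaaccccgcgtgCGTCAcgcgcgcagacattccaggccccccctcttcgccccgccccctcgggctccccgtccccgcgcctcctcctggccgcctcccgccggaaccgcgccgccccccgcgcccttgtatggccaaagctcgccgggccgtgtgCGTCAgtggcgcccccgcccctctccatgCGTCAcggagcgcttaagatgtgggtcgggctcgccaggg
Nr4a2: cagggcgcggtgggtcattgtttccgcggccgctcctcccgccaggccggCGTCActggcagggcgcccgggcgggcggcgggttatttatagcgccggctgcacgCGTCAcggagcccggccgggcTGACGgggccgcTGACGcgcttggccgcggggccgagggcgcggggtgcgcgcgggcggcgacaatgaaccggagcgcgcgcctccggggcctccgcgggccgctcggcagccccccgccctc
Nr4a3: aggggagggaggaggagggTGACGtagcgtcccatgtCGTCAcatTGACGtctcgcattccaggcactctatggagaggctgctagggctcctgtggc
The printed stretches hold 4, 4 and 3 matches, and the full 250 bases before each start site hold 4 in each gene, as the 152 exonic bases of Nr4a3 add 1. Of 32851 mouse promoters of this length, 17.8% hold at least 1 match on either strand and 0.137% hold 4 or more. In Nr4a1 the matches lie between 233 and 40 bases before the start site, in Nr4a2 between 200 and 111, and the printed matches of Nr4a3 between 231 and 205. The full palindrome TGACGTCA, in which TGACG and CGTCA overlap, was in none of the 3 windows and in 1.55% of all. The letters AAAGGTCA, the site that a single Nr4a protein binds, and the CArG box of serum response factor were also in none of the 3 and in 1.34% and 1.47% of all. A match of letters is not evidence of binding.

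The genes themselves lie at chr15:101254269-101274795 (Nr4a1, ENSMUSG00000023034, plus strand), chr2:57106830-57124003 (Nr4a2, ENSMUSG00000026826, minus strand) and chr4:48045153-48086447 (Nr4a3, ENSMUSG00000028341, plus strand) of GRCm38, and 0 other annotated genes overlap them, so no neighbor could share their reads by position. Over all nuclei, 10595 UMIs of Nr4a1 were counted (147 to 852 per mouse), 8322 of Nr4a2 (146 to 955) and 6979 of Nr4a3 (64 to 908).

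Where the family was expressed differed by member. CA1-like nuclei held 14.4% of all UMIs but 25.2% of those of Nr4a1, 22.2% of Nr4a2 and 27.0% of Nr4a3. CA3-like nuclei held 10.7% of all UMIs, 27.3% of those of Nr4a3, 11.1% of Nr4a1 and 6.57% of Nr4a2. Granule neurons of the dentate gyrus (DG-like) held 22.9% of all UMIs and only 4.24, 9.10 and 4.69% of those of Nr4a1, Nr4a2 and Nr4a3. CA1-like nuclei thus carried more of each gene than their share of RNA and DG-like nuclei less, while CA3-like nuclei exceeded it clearly for Nr4a3. Unnamed cluster 14, led by Nts, Teddm3 and Rxfp1, held 3.79% of all UMIs and 11.9% and 15.1% of those of Nr4a1 and Nr4a2.

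In the 9 awake mice the order of the 11 classes with enough nuclei in every mouse was set by mean CPM, the UMIs of the gene scaled by all UMIs of the class in that mouse. A step between neighbors is called larger than the spread where the mean of the within-mouse differences exceeded their SD. Nr4a1 was highest in unnamed cluster 14 at 142 ± 61.6 CPM (mean ± SD, n = 9), followed by subicular and cortical-like nuclei at 107 ± 38.9 and unnamed cluster 7 (led by Tshz2 and Npsr1) at 81.6 ± 33.7. The 2 steps between these 3 exceeded the spread, and each held in 9 of 9 mice. CA1-like (61.7 ± 18.0), fibroblast-like (58.4 ± 54.9), inhibitory-like (39.7 ± 5.27), CA3-like (35.4 ± 10.7) and OPC-like nuclei (30.4 ± 15.1) followed without a step beyond the spread. Oligodendrocyte-like (9.15 ± 10.2), astrocyte-like (7.29 ± 3.92) and DG-like nuclei (5.78 ± 2.13) came last, after a step that exceeded the spread and held in 8 of 9 mice.

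Nr4a2 was highest in subicular and cortical-like nuclei at 124 ± 39.4 CPM, unnamed cluster 14 at 110 ± 24.9 and fibroblast-like nuclei at 79.2 ± 72.3, which ranged from 6.21 to 215 over mice. CA1-like nuclei (48.6 ± 14.2) and unnamed cluster 7 (44.0 ± 18.0) came next, and the step from there to CA3-like nuclei (20.1 ± 6.78) was the only one beyond the spread, in 9 of 9 mice. OPC-like (15.1 ± 6.08), astrocyte-like (12.8 ± 6.32), DG-like (10.4 ± 2.13) and oligodendrocyte-like nuclei (8.70 ± 6.10) were close to each other. Inhibitory-like nuclei were lowest at 5.00 ± 2.20 CPM, in contrast to their place in the middle of the order for Nr4a1.

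Nr4a3 reached 62.7 ± 32.3 CPM in subicular and cortical-like nuclei, 56.4 ± 8.99 in CA3-like, 56.4 ± 20.3 in CA1-like, 47.6 ± 53.2 in fibroblast-like, 41.2 ± 18.2 in unnamed cluster 14 and 37.3 ± 15.1 in unnamed cluster 7, with no step beyond the spread among these 6. The next step, down to inhibitory-like nuclei at 14.6 ± 9.33, exceeded the spread in 9 of 9 mice. OPC-like (9.28 ± 9.98), astrocyte-like (6.89 ± 4.17), DG-like (5.54 ± 2.39) and oligodendrocyte-like nuclei (3.08 ± 3.24) closed the order. CA3-like nuclei thus ranked second for Nr4a3, seventh for Nr4a1 and sixth for Nr4a2.

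**Figure D1:**
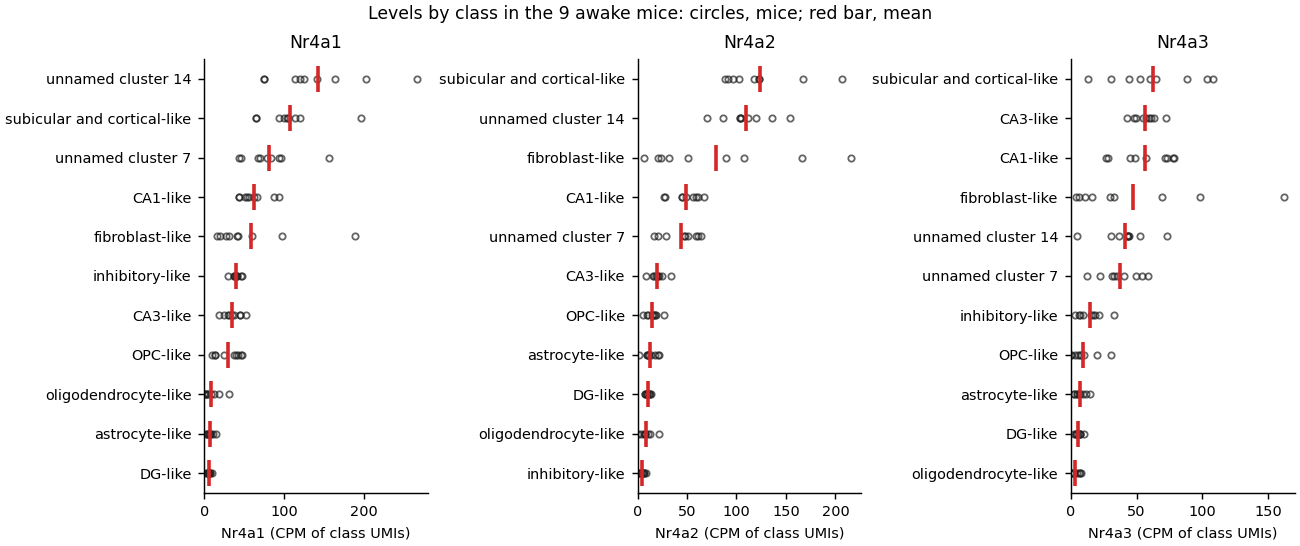
Level of each gene by class in the 9 awake mice, in CPM of the UMIs of the class, with circles for mice and a red bar for the mean. Subicular and cortical-like nuclei were first or second for all 3 genes, and inhibitory-like nuclei were in the middle for Nr4a1 and last for Nr4a2.

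In CA1-like nuclei, the excitatory neurons that give the main output of the hippocampus proper, the mean levels of all 3 genes were highest in awake mice, lower in GA mice and lowest in KETA mice. Nr4a1 was at 43.2 to 93.7 CPM in awake mice (median 55.6), 19.7 to 77.1 in GA mice (median 54.0) and 18.1, 18.4, 22.3 and 34.7 in KETA mice. Nr4a2 was at 26.5 to 67.1 CPM in awake mice (median 48.7), 24.9 to 39.1 in GA mice (median 27.7) and 4.61, 9.03, 10.8 and 14.9 in KETA mice. Nr4a3 was at 27.0 to 78.4 CPM in awake mice (median 56.9), 14.7 to 38.5 in GA mice (median 23.0) and 4.32, 6.02, 6.92 and 15.4 in KETA mice. All 4 KETA mice were below all 9 awake mice for the 3 genes, a pattern that 3.69% of the genes with enough UMIs shared, whereas GA and awake mice overlapped for each. Still, 7 of 9 awake mice were above all GA mice for Nr4a2 and for Nr4a3, and 2 of 9 for Nr4a1. Oligodendrocyte-like nuclei are used below as a level for free RNA, an untested assumption. In KETA mice they were at 4.82 to 9.13 CPM of Nr4a2 and 0 to 7.43 of Nr4a3, which overlap the CA1-like KETA values. Their 1.61 to 7.43 CPM of Nr4a1 lay below those.

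On the log2 scale, the mean of both genotypes in edgeR differed between GA and awake mice by -0.37 ± 0.27 (SE) for Nr4a1, -0.75 ± 0.19 for Nr4a2 and -1.33 ± 0.30 for Nr4a3. The difference between KETA and awake mice was -1.31 ± 0.37 for Nr4a1, -2.25 ± 0.29 for Nr4a2 and -2.79 ± 0.45 for Nr4a3. Both comparisons share the awake mice. By an adjusted p under 0.05 over all genes, edgeR called 2 of the 3 genes lower under GA, where 2.25% of 13970 genes were called lower, and 3 of 3 under KETA, where 5.08% were. The genes were chosen with these contrasts known, so nothing is read from those counts. Between KETA and GA mice the difference was -0.94 ± 0.37 for Nr4a1, -1.50 ± 0.29 for Nr4a2 and -1.46 ± 0.46 for Nr4a3. Nr4a2 was called lower there, as 3.94% of all genes were, and its KETA mice lay below all GA mice, as those of 5.93% of genes did. Markers of CA3 neurons summed to 197 to 240 CPM in the CA1-like nuclei of KETA mice and 242 to 397 in those of awake mice, with 10 of 10 markers detected in each state, and their part in the result was not tested. The Nr4a2 difference under GA lost its call without mouse 4, 10, 16, 17 or 18 (-0.64 to -0.74), and the Nr4a1 difference under KETA without mouse 17, 26, 27 or 28 (-1.08 to -1.43).

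**Figure D2:**
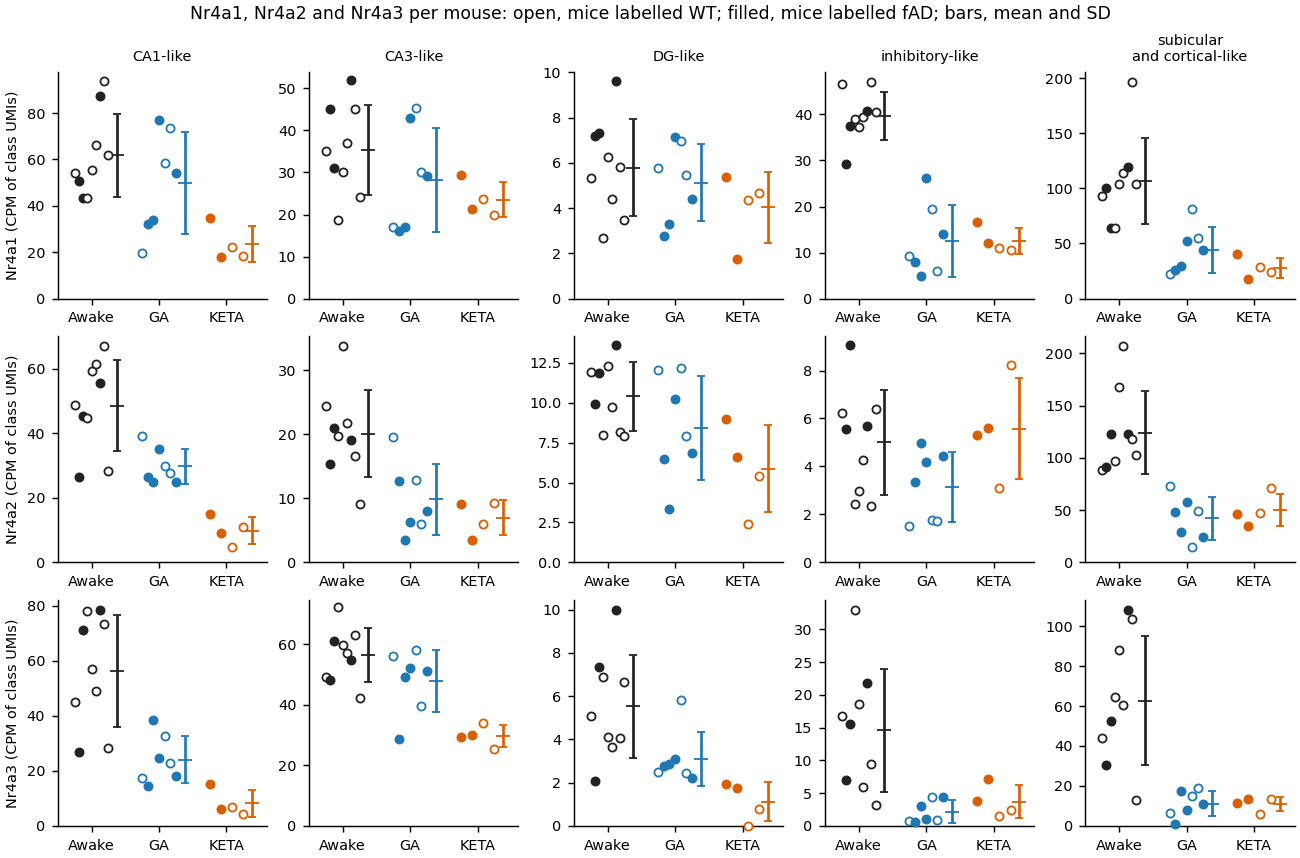
CPM of each gene per mouse (circles, open for mice labelled WT and filled for mice labelled fAD) with mean and SD by state, in 5 classes, each panel from 0. In CA1-like nuclei the KETA mice lie below the awake mice for all 3 genes, and in inhibitory-like nuclei both anesthetized groups lie below the awake mice for Nr4a1.

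In CA3-like nuclei, the pyramidal neurons fed by the mossy fibers, Nr4a1 was at 18.7 to 52.0 CPM in awake mice (median 35.1), 16.0 to 45.4 in GA mice (median 29.1) and 19.9 to 29.4 in KETA mice. Nr4a2 was at 9.08 to 33.8 CPM (median 19.7), 3.53 to 19.5 (median 8.01) and 3.55 to 9.31 in the same order. The last overlapped the 4.82 to 9.13 CPM of oligodendrocyte-like nuclei in KETA mice. Nr4a3 was at 42.4 to 72.3 CPM (median 57.2), 28.6 to 58.2 (median 51.2) and 25.3 to 33.9. The KETA mice lay below all awake mice for Nr4a3 alone, which 3.28% of genes also did, and the other groups overlapped. The log2 differences under GA were -0.40 ± 0.24 for Nr4a1, -1.07 ± 0.28 for Nr4a2 and -0.26 ± 0.17 for Nr4a3, with 1 of 3 called lower beside 0.731% of all genes. Those under KETA were -0.54 ± 0.32, -1.42 ± 0.40 and -0.82 ± 0.22, with 2 of 3 called lower beside 3.11% of all genes. Nr4a3 averaged 56.4 ± 8.99 CPM in awake (n = 9), 47.8 ± 10.3 in GA (n = 7) and 29.7 ± 3.55 in KETA mice (n = 4), so its GA difference was smaller than the SDs. The Nr4a2 call held in only 6 of the 20 fits that left out a mouse under GA and in 10 of 20 under KETA, and that of Nr4a3 under KETA was lost without mouse 10, 25, 26, 27 or 28. Where nuclei were assigned singly by their own markers instead of by cluster, the Nr4a2 difference under KETA was 0.07 ± 0.35, and neither KETA call held. The GA call of Nr4a2 was also lost without mice 1 to 4 (-1.45) and with only the groups compared in the fit (-1.07).

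DG-like nuclei held few UMIs of the family. Nr4a1 was at 2.67 to 9.61 CPM in awake mice (median 5.82), 2.76 to 7.14 in GA mice (median 5.47) and 1.74 to 5.35 in KETA mice. Nr4a2 was at 7.89 to 13.6 CPM (median 9.95), 3.31 to 12.2 (median 7.90) and 2.42 to 9.01. Nr4a3 was at 2.08 to 9.96 CPM (median 5.09), 2.20 to 5.82 (median 2.76) and 0 to 1.95. All of these ranges overlapped those of oligodendrocyte-like nuclei in the same state. The latter were 0 to 31.3 CPM of Nr4a1, 0 to 21.9 of Nr4a2 and 0 to 7.68 of Nr4a3 in awake mice. The differences below are thus between values that overlap the level taken for free RNA. The 4 KETA mice, with 14 Nr4a3 UMIs between them, lay below all awake mice for Nr4a3, as 3.28% of genes did. The log2 differences under GA were -0.34 ± 0.24, -0.43 ± 0.20 and -0.94 ± 0.32 for Nr4a1, Nr4a2 and Nr4a3, and neither edgeR nor DESeq2 called any of them, with 1.09% of all genes called lower by edgeR. Under KETA they were -0.56 ± 0.32, -0.95 ± 0.28 and -2.82 ± 0.59, with 2 of 3 called lower beside 5.95% of all genes. The KETA call of Nr4a2 was lost without mouse 10, 13, 17, 25, 26 or 27 and that of Nr4a3 without mouse 27. The Nr4a3 difference was -2.20 without mouse 27 and -4.61 without mouse 28, and that of Nr4a1 ranged from -1.12 without mouse 25 to -0.29 without mouse 26. The Nr4a2 call was lost as well without mice 1 to 4 and with doublets kept. CA3 markers summed to 450 to 512 CPM in the DG-like nuclei of awake mice, 319 to 428 in those of GA mice and 362 to 438 in those of KETA mice, with 10 of 10 detected, and their part in the result was not tested.

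In subicular and cortical-like nuclei, excitatory neurons of the neighboring output regions, the family was high in awake mice and low in both anesthetized states. Nr4a1 was at 64.4 to 197 CPM in awake mice (median 104), 22.3 to 81.6 in GA mice (median 43.9) and 18.1 to 40.1 in KETA mice. Nr4a2 was at 88.2 to 207 CPM (median 118), 14.8 to 73.4 (median 47.7) and 34.7 to 71.2. Nr4a3 was at 13.0 to 108 CPM (median 60.4), 1.01 to 19.0 (median 11.0) and 6.09 to 13.6. For Nr4a2, both anesthetized groups lay below all 9 awake mice, as 0.439% of genes did under GA and 1.7% under KETA, and for Nr4a1 the KETA mice did. Awake mouse 29, with 13.0 CPM of Nr4a3, was the only awake mouse inside the anesthetized range of that gene.

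The log2 differences there under GA were -1.33 ± 0.27 for Nr4a1, -1.53 ± 0.24 for Nr4a2 and -2.66 ± 0.44 for Nr4a3, and under KETA -1.79 ± 0.33, -1.25 ± 0.28 and -2.36 ± 0.51. All 3 genes were called lower in both comparisons, beside 2.96% of genes under GA and 2.15% under KETA. Each of the 3 GA calls held in 20 of 20 fits that left out a mouse. The KETA call of Nr4a2 was lost without mouse 25, 26 or 27, and that of Nr4a3 without mouse 25 or 27. Without mice 1 to 4 the GA difference of Nr4a1 was -0.99 and was not called.

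Inhibitory-like nuclei, the GABAergic interneurons, separated all anesthetized from all awake mice by Nr4a1. It was at 29.3 to 47.1 CPM in awake mice (median 39.4), 4.96 to 26.3 in GA mice (median 9.20) and 10.6, 10.9, 12.0 and 16.7 in KETA mice. Both anesthetized groups lay below all awake mice, as 0.407% of genes did under GA and 2.7% under KETA. Nr4a3 was at 3.19 to 32.9 CPM in awake mice (median 15.5), 0.56 to 4.45 in GA mice (median 1.05) and 1.56 to 7.21 in KETA mice, and both groups overlapped with the awake mice. Nr4a2 was at 2.35 to 9.06 CPM (median 5.58), 1.53 to 4.96 (median 3.36) and 3.11 to 8.25, with 57, 28 and 23 UMIs in all, and its counts were too low for the fit. The log2 differences were -1.74 ± 0.27 for Nr4a1 and -2.79 ± 0.53 for Nr4a3 under GA, and -1.57 ± 0.33 and -2.04 ± 0.66 under KETA. With nuclei assigned singly, the KETA value of Nr4a3 was -4.10 ± 1.23 and was not called. Of the 2 genes tested, 2 were called lower under GA beside 1.45% of all genes, and 1, Nr4a1, under KETA beside 2.71%. The KETA call of Nr4a1 was lost without any 1 of the 4 KETA mice (-1.43 to -1.71), and Nr4a3 was called under KETA without awake mouse 29 (-2.14). Without mouse 16 the GA difference of Nr4a3 was -3.39. The 11 markers of inhibitory neurons, all detected, themselves summed to 8858 to 11016 CPM in awake mice, 6737 to 9109 in GA mice and 6470 to 8281 in KETA mice. CA3 markers there summed to 935 to 1305, 646 to 969 and 807 to 921 CPM, and the part of either in the result was not tested.

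In unnamed cluster 14 the log2 difference under GA was -1.16 for Nr4a1, -0.43 for Nr4a2 and -2.54 for Nr4a3, and under KETA -1.62, -0.70 and -4.10, the last with 4 UMIs in the KETA mice. In unnamed cluster 7 it was -1.72, -1.16 and -2.29 under GA and -1.31, -0.90 and -2.16 under KETA. Nr4a1 and Nr4a3 were called lower in both clusters and both comparisons, beside 2.98% and 1.96% of genes under GA and 1.91% and 3.12% under KETA, and Nr4a2 was called in neither. In cluster 7, GA mice lay below all awake mice for Nr4a1 alone, as 0.212% of genes did, and KETA mice for Nr4a1 and Nr4a3, as 1.65% of genes did. The calls of Nr4a1 in cluster 14 were lost without mouse 3, 17 or 18 under GA and without mouse 2, 17, 25, 26, 27 or 28 under KETA, and the GA call also without mice 1 to 4 (-0.93). The Nr4a3 difference under KETA there was -5.73 without mouse 27. Nr4a2 was called in cluster 7 under GA without mouse 2 (-1.40) or 16 (-1.44), and in cluster 14 under KETA without mice 1 to 4 (-0.84). With no filter on low genes it was called in cluster 7 under GA (-1.17) and KETA (-0.87) and in cluster 14 under KETA (-0.75). Nr4a3 was at 3.95 to 11.8 CPM in the 7 GA mice of cluster 14, where the awake mice ranged from 4.31 to 73.0, with mouse 29 at 4.31.

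In glia and fibroblasts the members were not called against awake mice, but several values under GA moved by over 1.5 times without mouse 3. In astrocyte-like nuclei the log2 differences of Nr4a1, Nr4a2 and Nr4a3 were -0.37 ± 0.48, -0.78 ± 0.37 and -0.81 ± 0.52 under GA and 0.96 ± 0.56, 0.55 ± 0.42 and 1.30 ± 0.56 under KETA. Nr4a3 was at 2.28 to 14.7 CPM in awake astrocyte-like nuclei, 0 to 18.4 in GA and 7.04 to 27.5 in KETA, so all groups overlapped. Without mouse 3 the GA difference of Nr4a3 was -1.74 ± 0.51 and was called, as it was without mice 1 to 4 (-1.85), and that of Nr4a1 was -1.35. The 8 markers of DG granule neurons, all detected there, summed to 1811 to 2685 CPM in awake and 1264 to 1592 in KETA mice, and their part in the result was not tested. In fibroblast-like nuclei the differences were -1.31, -0.47 and -1.94 under GA and -0.24, -0.19 and -0.57 under KETA, with 12, 30 and 6 UMIs in all GA mice. Without mouse 3 those of Nr4a1 and Nr4a3 under GA were -3.92 ± 1.12 and -4.06 ± 1.47, still not called. Nr4a1 alone passed the filter on low genes in OPC-like (-0.01 and -0.55) and oligodendrocyte-like nuclei (-0.35 and -0.79, the former -1.01 without mouse 3). In the latter class it had 110 UMIs in all, against 120 of Nr4a2, and did not pass without mice 1 to 4. Of the oligodendrocyte-like nuclei, 1 of the 2 clusters held 22.0 to 41.3% in the awake and GA groups and 0 and 0.168% in WT-KETA and fAD-KETA mice, and its part was not tested. In the astrocyte-like, fibroblast-like, OPC-like and oligodendrocyte-like classes edgeR called none of the differences from awake mice, of 3, 3, 1 and 1 genes tested. The share of all genes called in either direction was 7.57% in astrocyte-like, 0% in fibroblast-like, 0.43% in OPC-like and 6.35% in oligodendrocyte-like nuclei under GA, and 7.92, 21, 1.14 and 3.5% under KETA. Between KETA and GA mice edgeR called the Nr4a3 difference in astrocyte-like nuclei, 2.11 ± 0.61, where 4.83% of all genes were called higher. Those nuclei were not made up alike in the groups, since 1 of the 2 astrocyte-like clusters held 35.0% of them in WT-GA and 25.9% in fAD-GA but 2.26% in WT-KETA and 4.04% in fAD-KETA mice (17.2 and 27.6% in WT-Awake and fAD-Awake), and its part in the result was not tested.

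**Figure D3:**
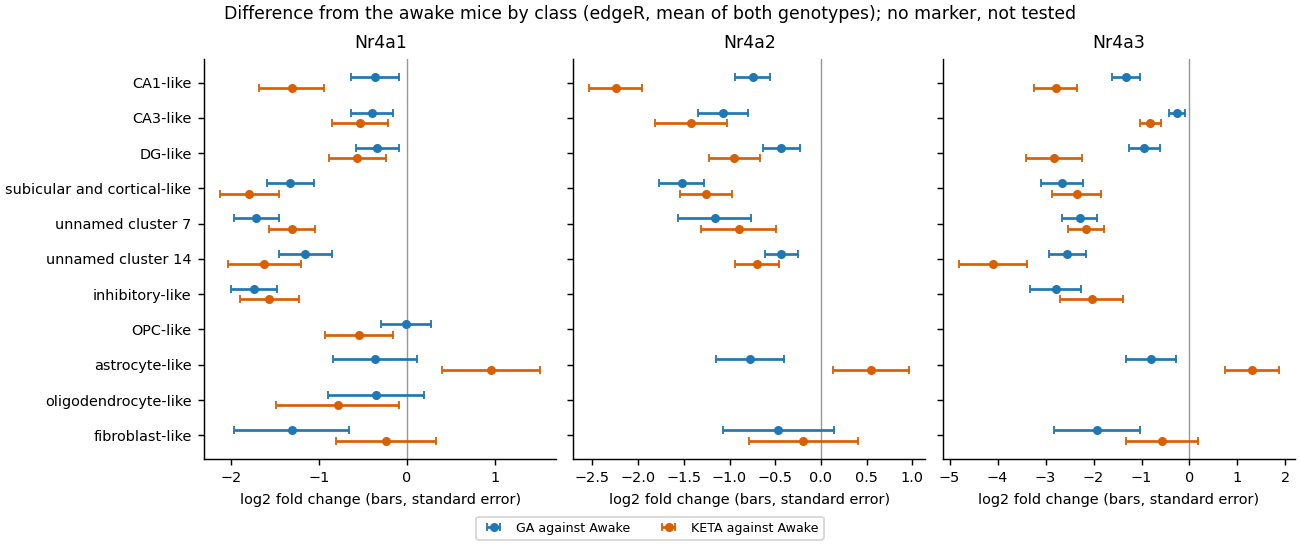
Log2 fold change of each gene against the awake mice by class, for GA (blue) and KETA (orange), with standard errors from edgeR, where a class without a marker was not tested for that gene. Excitatory and inhibitory classes lie to the left of 0, as do the fibroblast-like, OPC-like and oligodendrocyte-like values. The astrocyte-like values lie to the left under GA and to the right under KETA.

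Since the runs of mouse numbers may stand for batches, GA and awake mice were also compared within runs. The mean of the GA mice lay below that of the awake mice in 4 of 4 runs for all 3 genes in CA1-like, CA3-like and subicular and cortical-like nuclei. The same held for Nr4a1 and Nr4a3 in inhibitory-like nuclei and unnamed clusters 7 and 14. In DG-like nuclei it held in 4 of 4 runs for Nr4a2 and Nr4a3 and in 3 of 4 for Nr4a1. For Nr4a2 in inhibitory-like nuclei it held in 2 of 4. In glia and fibroblasts it held in 0 (Nr4a3, oligodendrocyte-like) to 4 of 4 runs (Nr4a2, astrocyte-like). The CA3-like means of Nr4a1 in mice 14 to 17 were close, at 44.5 CPM in awake and 44.2 in GA mice. The share of all genes with these patterns was not counted, so nothing is read from the counts of runs. In CA1-like nuclei, Nr4a3 averaged 36.0, 68.7, 63.8 and 73.4 CPM in the awake mice of the 4 runs and 15.9, 38.5, 28.6 and 20.6 in the GA mice. The awake mean of the first run, mice 1 to 4, was the lowest of the 4 and lay below the GA value of the second. The second run held 1 GA mouse and the fourth 1 awake mouse, so the comparisons in those runs rest on 1 library on that side. With the run as a block, all 12 member calls under GA, of 28 pairs of gene and class tested, held and 2 were gained. The latter were Nr4a1 in CA1-like (-0.62 ± 0.16) and CA3-like nuclei (-0.63 ± 0.17), and the CA1-like differences of Nr4a2 and Nr4a3 were -0.77 ± 0.16 and -1.26 ± 0.18. Calls over all genes rose too under the block, from 802 to 1450 in CA1-like, 285 to 571 in CA3-like and 364 to 975 in DG-like nuclei. Nothing about the members is read from their counts.

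The KETA mice can be set within a run only against awake mouse 29. In CA1-like nuclei this mouse had 61.8 CPM of Nr4a1, 28.2 of Nr4a2 and 28.2 of Nr4a3, and all 4 KETA mice were below it for the 3 genes. Over all 3 genes and 11 classes, all 4 were below it in 12 of 33 pairs of gene and class, and mouse 29 was itself the lowest awake mouse in 12 of 33. The share of all genes with these patterns was not counted, so nothing is read from the 2 counts. With the run as a block, all 15 member calls under KETA, of 28 pairs of gene and class tested, were lost. Calls over all genes fell alike, from 1308 to 38 in CA1-like, 776 to 1 in CA3-like and 1836 to 0 in DG-like nuclei. The CA1-like differences under KETA were then -1.47 for Nr4a1, -1.44 for Nr4a2 and -1.89 for Nr4a3, and those of DG-like nuclei -0.12, -0.64 and -3.25. In subicular and cortical-like nuclei they were -1.88, -0.95 and -0.21, and in CA3-like nuclei -0.24, -0.23 and -0.47. Nr4a1 stayed at -1.58 in inhibitory-like nuclei, -1.56 in unnamed cluster 7 and -1.38 in unnamed cluster 14. Nr4a3 was at 0.11 in inhibitory-like nuclei, -0.59 in cluster 7 and -0.96 in cluster 14, and Nr4a2 at 0.55 in cluster 7, so the signs of the first and last turned. In fibroblast-like nuclei the KETA differences of Nr4a1, Nr4a2 and Nr4a3 became 0.74, 2.95 and 1.26, in astrocyte-like nuclei 1.17, 3.90 and 2.83, and those of Nr4a1 were 0.59 in OPC-like and 1.28 in oligodendrocyte-like nuclei, none of them called. Without mice 1 to 4, the CA1-like differences were -0.16, -0.91 and -1.32 under GA and -1.40, -2.39 and -2.99 under KETA.

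**Figure D4:**
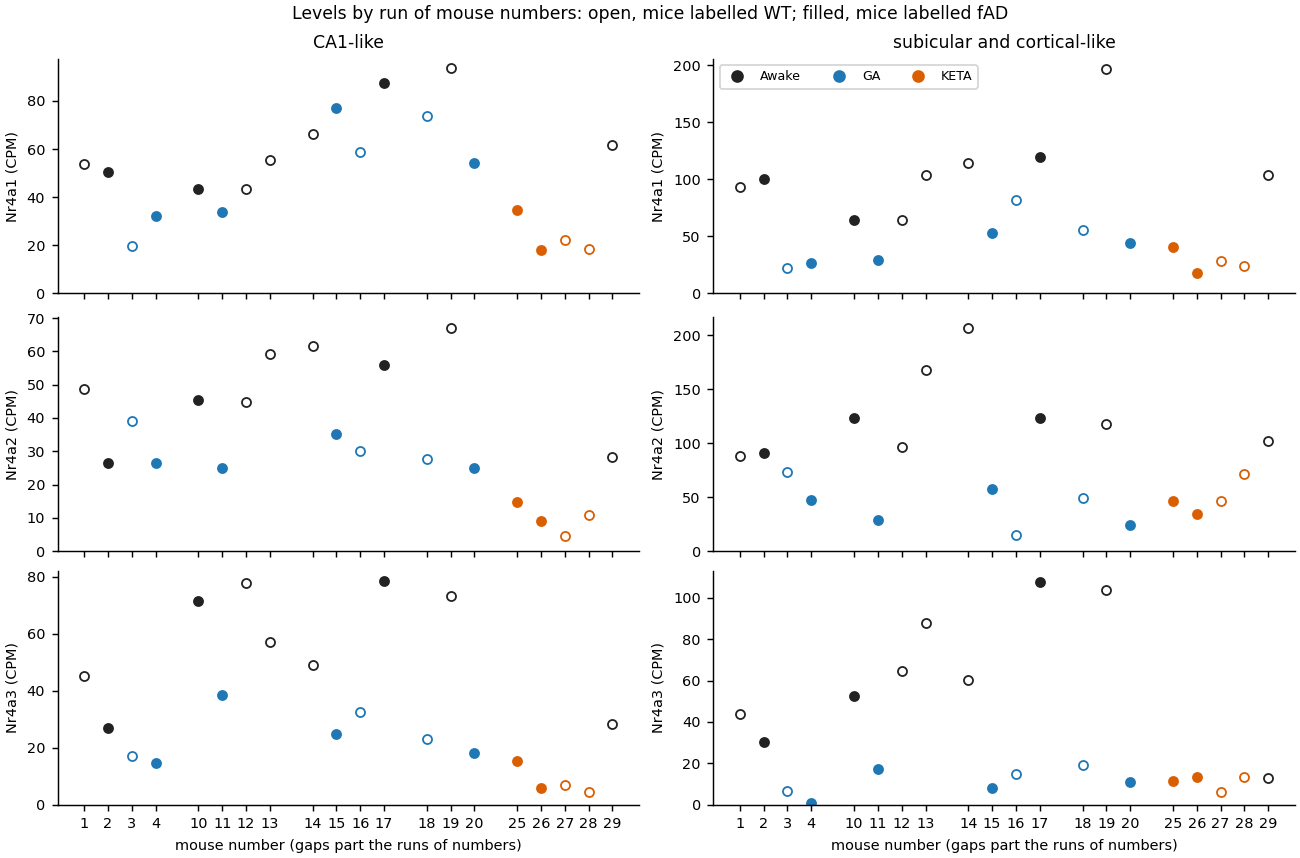
CPM of the 3 genes in CA1-like and in subicular and cortical-like nuclei for each mouse in order of its number, with gaps between the runs, black for Awake, blue for GA and orange for KETA. GA mice lie below awake mice on average within each of the first 4 runs, and in the last run mouse 29 is the only awake mouse.

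Genotypes were compared within each state. In the awake mice, the CA1-like levels were 60.4 ± 23.6 CPM in fAD-Awake (n = 3) and 62.4 ± 17.2 in WT-Awake (n = 6) for Nr4a1, 42.6 ± 14.9 and 51.6 ± 14.2 for Nr4a2, and 58.9 ± 27.9 and 55.1 ± 18.5 for Nr4a3. Under GA they were 49.3 ± 21.1 in fAD-GA (n = 4) and 50.7 ± 27.8 in WT-GA (n = 3) for Nr4a1, 27.9 ± 4.95 and 32.3 ± 6.03 for Nr4a2, and 24.0 ± 10.5 and 24.2 ± 7.70 for Nr4a3. These means differed by less than the SDs. The GA differences of the genotypes were within their errors of each other in CA1-like nuclei. For Nr4a3 they were -1.32 ± 0.42 in mice labelled WT and -1.33 ± 0.42 in those labelled fAD, and for Nr4a2 -0.83 ± 0.27 and -0.66 ± 0.28. In DG-like nuclei the WT difference was 0.24 ± 0.33 for Nr4a1 and the fAD difference -0.91 ± 0.35, starting from awake levels of 4.66 ± 1.40 in WT and 8.04 ± 1.36 in fAD.

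Ranges of the genotypes overlapped in 32 of 33 pairs of gene and class among awake mice and in 32 of 33 among GA mice. Over all pairs of a gene with enough UMIs and a class, ranges were apart in 1.22% among awake and 2.98% among GA mice. The 2 pairs that did not were Nr4a1 in awake DG-like nuclei and Nr4a2 in GA inhibitory-like nuclei, where the means were 4.24 ± 0.666 in fAD-GA and 1.68 ± 0.129 in WT-GA. Among KETA mice, with 2 per genotype, they overlapped in 20 of 33 and were apart in 13, beside 37.3% of all such pairs. Over awake and GA mice together edgeR called 0 genes between the genotypes in CA1-like, CA3-like or DG-like nuclei, with 134, 128 and 117 genes at an unadjusted p under 0.05, and DESeq2 also called 0. The background of calls for any member is therefore 0%. Among the 13970, 13133 and 15160 genes tested, fewer reached that unadjusted p than the threshold alone would give. The 0 calls therefore do not show that the genotypes are alike.

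Nuclei with a UMI of the family were also counted, to ask how many carried it and whether members shared nuclei. Every nucleus was thinned to 1500 UMIs, and those with fewer were left out (1440 of the awake CA1-like nuclei, leaving 6151, 1124 of those under GA, leaving 6659, and 236 of those under KETA, leaving 1696). A UMI of any member was found in 9.80 to 22.0% of awake CA1-like nuclei (median 15.9%), 9.54 to 18.1% under GA (median 12.5%) and 4.57 to 9.43% under KETA (median 5.30%). The corresponding awake share was 22.8 to 39.6% in subicular and cortical-like nuclei, 6.75 to 10.3% in inhibitory-like and 2.11 to 3.12% in DG-like nuclei. Oligodendrocyte-like nuclei were taken as a level for free RNA, called background below. Whether their UMIs are free RNA was not tested. Their mean Nr4a3 level was 3.08 CPM in awake and 6.76 CPM in GA mice. In the 6 awake mice with enough deep nuclei of this class, the share with any member had a median of 0% and was at most 4.55%. Only 441 of the awake nuclei of the class were deep enough. Before thinning, an Nr4a3 UMI was found in 8.25 to 11.8% of awake CA1-like nuclei at a median depth per mouse of 1616 to 5441 UMIs and in 0 to 0.636% of awake oligodendrocyte-like nuclei at 611 to 1340 UMIs. The DG-like shares overlapped those of oligodendrocyte-like nuclei and so cannot be told from background, while those of the other neuronal classes lay above them in every awake mouse.

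In subicular and cortical-like nuclei the share with any member was 7.89 to 17.8% under GA (median 14.5%) and 8.48 to 14.6% under KETA, below the awake range in all anesthetized mice. In inhibitory-like nuclei it was 1.05 to 4.10% under GA and 1.35 to 2.67% under KETA, again below the awake range. How often the shares of other genes part the groups in this way was not counted, so nothing is read from these separations. Oligodendrocyte-like nuclei had 0 to 3.70% in the 4 GA mice and 4.44% in the 1 KETA mouse with enough deep nuclei, so the inhibitory-like shares under anesthesia cannot be told from background. The lowest CA1-like share under KETA, 4.57%, lay next to that 4.44%, so the low end of the CA1-like KETA range cannot be told from background either.

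Members were found together in the same CA1-like nuclei of most awake mice. Among nuclei with an Nr4a2 UMI, 29.2 to 48.9% also had an Nr4a3 UMI (median 42.9%, 7 mice with at least 20 such nuclei), against 2.33 to 6.41% of nuclei without Nr4a2 (median 4.12%, 9 mice). Under GA the same shares were 1.41 to 16.1% (median 5.71%, 7 mice) and 1.20 to 4.64% (median 3.36%). Of the 2 awake mice with fewer Nr4a2-positive nuclei, mouse 2 had Nr4a3 in 3 of 13 (23.1%) and mouse 29 in 0 of 18, which allows a share of nuclei with a UMI of up to 16.7% (3 counts of the total) and says nothing of nuclei that express the gene without one. Thus over all 9 awake mice the share was 0 to 48.9% (median 36.4%) and overlapped the GA range through mouse 29. Among nuclei with an Nr4a1 UMI, 2.78 to 30.0% of awake nuclei (median 17.0%) and 2.04 to 16.4% of GA nuclei (median 4.76%) also had Nr4a2, and these ranges overlapped. At least 2 members were found in a median of 3.55% of awake CA1-like nuclei (lowest 0.51%), 0.515 to 2.17% under GA (median 0.82%) and 0 to 0.41% under KETA.

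**Figure D5:**
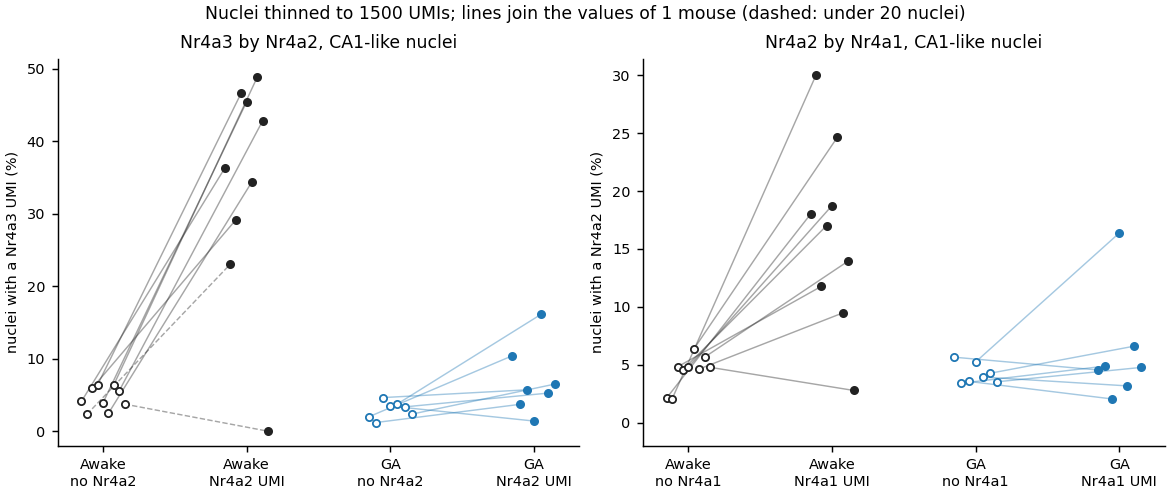
Percent of CA1-like nuclei with an Nr4a3 UMI by whether they had an Nr4a2 UMI (left), and with an Nr4a2 UMI by whether they had an Nr4a1 UMI (right), after thinning each nucleus to 1500 UMIs, with a line for each awake (black) or GA (blue) mouse, dashed where fewer than 20 nuclei had the UMI. The solid awake lines for Nr4a3 rise from at most 6.41 to between 29.2 and 48.9, the dashed ones end at 23.1 and 0, and no GA mouse exceeds 16.1.

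The other genes of the pathway were taken as lists, with calls by edgeR (adjusted p under 0.05 over all genes tested). Beside their counts stands the share of all genes called lower and higher, which under GA was 2.25 and 3.49% in CA1-like, 0.731 and 1.44% in CA3-like and 1.09 and 1.31% in DG-like nuclei, and under KETA 5.08 and 4.28%, 3.11 and 2.8%, and 5.95 and 6.16%. Whether the lists differ from other genes or from each other was not tested. The lists were chosen with earlier results of these data known, so their counts and p-values are given as a description only. Of 20 immediate-early transcription factors, induced by the same stimuli as Nr4a genes, 14 could be tested in CA1-like nuclei, and 6 were lower under GA (2.25% of all genes were) and 0 higher, with a median log2 difference of -1.005 against 0.01 for all genes. Fos, a subunit of AP-1, fell by 2.83 ± 0.56 on the log2 scale (adjusted p = 0.00549, edgeR), from 8.17 ± 4.65 CPM in awake mice (n = 9) to 1.23 ± 1.22 (n = 7). Egr1, a zinc finger factor of plasticity, fell by 1.84 ± 0.26 (adjusted p = 0.000438), Npas4, a calcium-driven factor of neurons, by 1.62 ± 0.24 (adjusted p = 0.000641) and Egr3 by 0.97 ± 0.20 (adjusted p = 0.00733). Fosb and Egr4 fell by 2.17 ± 0.49 and 1.70 ± 0.37. Under KETA 6 were also lower (5.08% of all genes) and 0 higher (median -0.61 against -0.03): Npas4 by 3.71 ± 0.45 (adjusted p = 0.000439), Egr4 by 4.00 ± 0.72, Fosl2 by 2.28 ± 0.54, Junb by 1.59 ± 0.43 and Egr1 by 1.37 ± 0.34. Fosb had 66 UMIs in awake CA1-like nuclei and 0 in those of KETA mice, at least 6.38-fold lower by a floor of 3 counts over the group. The CA1 count was 3 without mouse 27 under KETA and 1 with the run as a block.

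Fos was not called under KETA in CA1-like or CA3-like nuclei. In CA1-like nuclei it was at 9.90 ± 8.98 CPM in KETA mice (n = 4, 0.769 to 22.0), a log2 difference of -0.08 ± 0.61 from awake (adjusted p = 0.952, edgeR), and in CA3-like nuclei at 8.20 ± 4.10 against 4.32 ± 2.52 in awake and 0.299 ± 0.306 in GA mice. In those CA3-like nuclei 5 of 11 factors tested were lower under GA and 0 higher (median -1.02 against 0.01): Fos by 3.70 ± 0.61 (adjusted p = 0.00531), Egr4 by 1.70 ± 0.44, Fosl2 by 1.54 ± 0.32, Egr1 by 1.49 ± 0.32 and Npas4 by 1.48 ± 0.36. This count was 1 without mice 1 to 4, 1 without mouse 10, 2 without mouse 18, and 3 without mouse 1, 2, 4, 12, 13, 16, 17 or 20. Under KETA 3 of 11 were lower in CA3-like nuclei and 0 higher. Fosl2 fell by 1.60 ± 0.47, Egr4 had 3 UMIs in KETA mice (0.674 CPM against 5.94 in awake mice), and Npas4 had 0 against 133 in awake mice, at least 11.3-fold lower. It was 1 of 11 without mouse 17, 25 or 27.

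In DG-like nuclei edgeR called 0 of 15 immediate-early factors under GA, with 3 lower at an unadjusted p under 0.05, 1 called by DESeq2 and 1 by edgeR without mouse 15, and 1 under KETA, Egr4 (lower by 4.41 ± 0.98 with 7 UMIs in KETA mice), which was not called without mouse 27.

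The list of 30 calcium and cAMP inputs to Nr4a transcription holds CREB, its coactivators, kinases and the MEF2 and histone deacetylase partners. As some members, such as the Sik kinases, restrain CREB coactivators, a count called lower gives no direction of drive. In CA1-like nuclei 2 of 30 were lower under GA (2.25% of all genes) and 0 higher (median -0.22 against 0.01): Camk4, the nuclear calmodulin kinase that phosphorylates CREB, by 0.77 ± 0.13 (adjusted p = 0.00238, edgeR), and Crtc3, a CREB coactivator, by 0.55 ± 0.12 (adjusted p = 0.00927). Under KETA 9 were lower (5.08% of all genes) and 0 higher (median -0.22 against -0.03), of which the 4 most expressed were Sik3 (-0.85 ± 0.17) and Sik2 (-0.93 ± 0.20), kinases that hold CREB coactivators in the cytoplasm, Camk4 (-0.73 ± 0.17) and Adcy8 (-1.31 ± 0.26), a calcium-driven adenylyl cyclase. That count was 5 without mouse 25, 4 without mouse 26, 4 without mouse 27 and 1 with the run as a block. In DG-like nuclei Adcy8 and Camk4 were lower under GA, by 1.56 ± 0.18 (adjusted p = 0.000411) and 1.51 ± 0.25 (adjusted p = 0.00477), and under KETA, by 0.88 ± 0.22 and 1.37 ± 0.31.

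In DG-like nuclei under KETA, Ep300, a histone acetyltransferase that binds CREB, and Sik2 were also lower (-0.66 ± 0.14 and -0.65 ± 0.12) and Camk2g was higher by 0.47 ± 0.12, so that 4 of 30 were lower (5.95% of all genes) and 1 higher (2 lower without mouse 27, and 0 higher without mouse 25 or 27 and 2 without mouse 12 or 29). In CA3-like nuclei 0 of 29 were called under GA by edgeR or DESeq2, with 4 lower at an unadjusted p under 0.05. Under KETA Creb1 (-0.89 ± 0.22), Ep300 (-0.64 ± 0.15) and Sik3 (-0.48 ± 0.12) were lower and Camk2g higher by 0.91 ± 0.20. Without mouse 25 or 27, 0 of the list were called lower and 0 higher, and without mouse 26 or 28, 1 was lower.

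Partners of the Nr4a receptors formed the next list, of which 13 genes could be tested in CA1-like and 14 in CA3-like and in DG-like nuclei. Of the retinoid X receptors, with which Nr4a1 and Nr4a2 can pair, and the corepressors, coactivators and modifiers in a list of 15, the coactivator Ncoa3 was the only gene lower, under GA by 0.36 ± 0.09 in CA1-like (adjusted p = 0.0167, edgeR) and 0.46 ± 0.11 in DG-like nuclei (adjusted p = 0.0366), and under KETA by 0.68 ± 0.11 and 0.66 ± 0.14. In CA3-like nuclei edgeR and DESeq2 called 0 of 14 under GA, with 4 lower and 1 higher at an unadjusted p under 0.05, and under KETA Hipk2 was 0.47 ± 0.13 higher, a call lost in 9 of the fits that left out a mouse. The DG-like call of Ncoa3 was lost without mouse 27 under KETA and in 11 such fits under GA. Medians of this list were within 0.19 of those of all genes. Of 42 other nuclear receptors, 25 could be tested in CA1-like nuclei, where the retinoic acid receptor Rara was lower under GA by 1.06 ± 0.21 (adjusted p = 0.00584) and the thyroid hormone receptor Thrb (-0.67 ± 0.17) and Nr2f6 (-1.99 ± 0.57) under KETA. In DG-like nuclei the mineralocorticoid receptor Nr3c2 was lower under GA by 0.69 ± 0.18 and the estrogen receptor Esr1 higher by 1.94 ± 0.43. Under KETA Nr3c2, Nr2c1 and Nr1h3 were lower there by 0.72 to 1.54 and Esr1 higher by 2.99 ± 0.48. The GA call of Esr1 was lost without mouse 2, 3 or 10 and that of Nr3c2 in 15 fits, and under KETA 0 were lower without mouse 25 and 1 without mouse 27, which also removed Esr1. In CA1-like nuclei 4 were lower under GA without mouse 11 and 2 without mouse 1, 2 or 18, and 0 were lower under KETA without mouse 26 or 28 and 1 without mouse 25 or 27. In CA3-like nuclei 0 of 26 were called under GA, with 3 lower before adjustment (p under 0.05), none by DESeq2, and Nr1h3 was lower under KETA (5 UMIs in KETA mice), which was lost in 9 fits. The median of this list in CA1-like nuclei was -0.15 under GA and -0.22 under KETA, against 0.01 and -0.03 for all genes.

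Endoplasmic reticulum chaperones, induced by the unfolded protein response rather than by neuronal activity, were the last list. Of the 16 in the files, edgeR and DESeq2 called 0 under GA in CA1-like, CA3-like and DG-like nuclei, with 1, 1 and 0 lower at an unadjusted p under 0.05. Under KETA Pdia4 was lower in all 3 classes (-1.69 ± 0.38, -1.75 ± 0.41 and -0.92 ± 0.27), Canx in CA1-like and CA3-like and Xbp1 in DG-like nuclei, and Manf was higher in CA3-like nuclei. Xbp1 is a transcription factor of that response and no chaperone, but was counted in the list. Without mouse 25, edgeR called 0 genes of the list under KETA in CA1-like, CA3-like or DG-like nuclei. The lower count of 2 also went to 0 without mouse 26, 27 or 28 in CA3-like and without mouse 26 or 27 in DG-like nuclei. It went to 1 without mouse 27 in CA1-like, without mouse 1, 2, 13, 14 or 17 in CA3-like and without mouse 2, 13 or 28 in DG-like nuclei. Manf was not called without mouse 2, 10, 13, 14, 25, 26, 27 or 28, and 1 chaperone was higher in DG-like nuclei without mouse 4, 11, 19, 20 or 29. With the run as a block, the only list genes called under KETA in these 3 classes were 1 immediate-early factor and 1 calcium or cAMP input in CA1-like nuclei. The counts of list genes under these alternatives were added after the data were seen.

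Genes whose levels over the 20 mice were most like those of the members are named as a description only, since the mice share run and state. For Nr4a1 in CA1-like nuclei they were Cab39 (Pearson r = 0.893 over log2 CPM of 20 mice), Bach2, Gm3764, Homer2 and Bdnf (r = 0.876), the last a neurotrophin induced by activity. For Nr4a2 they were 1700025G04Rik (r = 0.890), Npas4 (r = 0.890), Irs2, Nr4a3 (r = 0.884) and Efnb2, while r between Nr4a1 and Nr4a2 was 0.711 and between Nr4a1 and Nr4a3 0.742. For Nr4a3, which had its highest mean of the 3 hippocampal excitatory classes in CA3-like nuclei, they were Mylip (r = 0.857), Elovl6, Zhx2, Upk3bl and Sbk1. There r was 0.411 with Nr4a1 and 0.559 with Nr4a2. Over the means of 9 named classes the nearest genes were Gm16226, R3hdm2, Runx1t1, Hnrnpll and Rasgef1b for Nr4a1 (r = 0.954 to 0.919), Bend5, Atp10a, Fxyd5, Arpc3 and Atp2a2 for Nr4a2 (0.899 to 0.788) and Psme4, Sv2b, Slc9a4, Scube1 and Dyrk2 for Nr4a3 (0.961 to 0.904).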

How the data were processed

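Hippocampal nuclei of 20 mice were profiled by droplet single nuclei RNA-sequencing. Per the file headers and the submitters' processing notes, the authors made the deposited UMI counts per gene and nucleus with Cell Ranger 5.0.0 on mm10. The methods of the study also name CellBender, a filter on genes per nucleus, Seurat, DoubletFinder, Harmony and MAST, and whether CellBender was applied to these files is not given in the sources used here. The smallest nucleus had 229 genes. Reads in introns would count, so unspliced RNA is part of each value.

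From the counts, 10844 nuclei (6.74%) were marked as doublets by simulated neighbors, and nuclei were clustered (2000 variable genes, 30 principal components, 20 neighbors, Leiden resolution 1, 29 clusters). Clusters were named "X-like" from marker lists, and 4 with over 40% doublets were left out. Names were rebuilt and may differ from those of the study. Groups come from the labels, and replicates are separate mice. Counts were summed per mouse and class, in the 11 classes with at least 20 nuclei in every mouse. edgeR 4.0.16 (limma 3.58.1, R 4.3.3) fitted quasi-likelihood models with TMM scaling and filterByExpr to the 6 groups, contrasts were averaged over genotypes, and calls used a Benjamini-Hochberg adjusted p under 0.05 over all genes of the class. Group ranges were compared with genes of at least 100 UMIs in the class as background. Shares of nuclei cover counting error only. Python 3.11.15 with numpy 2.4.6, scipy 1.17.1, pandas 2.3.3, scikit-learn 1.9.0, leidenalg 0.10.2 and igraph 0.11.9 were used. The fits were tested on simulated data.

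The members, gene lists and tests were chosen with earlier results of these data known. Named were the members, the called genes of each list in DG-like, CA1-like or CA3-like nuclei (the 4 with the highest mean CPM where over 6 were called), and the 5 genes of highest Pearson correlation of log2(CPM + 1), among those of at least 5 CPM. Shares of nuclei with 2 members over all mice were added after the data were seen. Alternatives were RLE scaling, DESeq2 1.42.0, no gene filter, only the groups compared, the run as a block, no mice 1 to 4, doublets kept, 110556 nuclei gated singly by their markers, and each mouse left out. Some called genes of the lists are not reported here. Of the endoplasmic reticulum chaperones, 16 were found in the files.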

Additional observations from a re-analysis of the deposited data

Results flagged for a closer look

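Of 66 groups of at least 4 mice checked, each for 1 gene in 1 class, 4 held a mouse whose gap to the others exceeded Dixon's 95% limit, and chance alone gives about 1 in 20. In OPC-like nuclei, Nr4a1 of fAD-GA mouse 15 was at 49.5 CPM (15 UMIs) and that of the other 3 at 27.7 to 30.9. In subicular and cortical-like nuclei, Nr4a1 of WT-Awake mouse 19 was at 197 CPM (55 UMIs), with the other 5 at 64.5 to 114. In CA1-like nuclei, Nr4a2 of fAD-GA mouse 15 was at 35.3 CPM (128 UMIs) and that of the others at 24.9 to 26.5. In CA3-like nuclei, Nr4a3 of fAD-GA mouse 4 was at 28.6 CPM (77 UMIs), where the others were at 49.1 to 52.0. Mouse 15 was thus high in its group for separate genes in separate classes, and mouse 4 belongs to the run whose mitochondrial share stood apart.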

How the results depend on the processing

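In CA1-like nuclei the 6 differences of the members from awake mice kept their sign in all 28 fits. Leaving out each mouse gave -0.56 to -0.17 (GA) and -1.63 to -1.08 (KETA) for Nr4a1, -0.89 to -0.64 and -2.55 to -2.01 for Nr4a2, and -1.52 to -1.21 and -3.23 to -2.49 for Nr4a3. With the run as a block the KETA differences of Nr4a2 and Nr4a3 were -1.44 ± 0.42 and -1.89 ± 0.51. Among differences that edgeR called, the only one that changed sign was that of Nr4a2 under KETA in CA3-like nuclei, 0.066 ± 0.35 with nuclei gated singly. The causes were not tested.

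Counts of genes called depended on the mice. Under GA, 802 genes in CA1-like, 285 in CA3-like and 364 in DG-like nuclei became 1450, 571 and 975 with the run as a block, and 242, 15 and 38 without mice 1 to 4. The share of higher genes went from 54.4 to 23.7% in DG-like nuclei without those mice, and from 66.3 to 55.9% in CA3-like nuclei under the block. DESeq2 called 664 in DG-like nuclei, and single gating left 178 in CA3-like nuclei. Under KETA, 1308, 776 and 1836 genes became 38, 1 and 0 under the block, the last with 1078 at an unadjusted p under 0.05. Of the CA1-like genes 45.7% were higher before and 2.63% under the block. Without mice 1 to 4, CA3-like and DG-like counts were 506 and 1195, and single gating gave 457 in CA3-like nuclei. With no gene filter the median of all genes under KETA was -0.14 in CA1-like, -0.14 in DG-like and -0.17 in CA3-like nuclei, a shift of over 0.1 against which the members' folds stand.

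Leaving out each mouse gave 447 (without mouse 10) to 903 genes (without mouse 11) in CA1-like, 95 (10) to 311 (11) in CA3-like and 150 (10) to 566 (11) in DG-like nuclei under GA. Under KETA it gave 290 (27) to 1483 (3), 83 (25) to 991 (29) and 218 (27) to 2251 (29). GA counts also moved by over 1.5 times without mouse 2 or 3 in CA1-like nuclei (528 and 517), without 2, 3, 4, 13 or 18 in CA3-like nuclei (102 to 175) and without 2, 3, 4, 13 or 20 in DG-like nuclei (157 to 239). KETA counts did so without 25 or 26 in CA1-like (527 and 702), 2, 26, 27 or 28 in CA3-like (90 to 451) and 2, 25 or 26 in DG-like nuclei (654 to 1091). Between genotypes 0 genes were called in each of these fits. Of the other member differences, 573 values under the other settings stayed within their spread and 22 moved beyond it, and of those without 1 mouse 1550 stayed and 10 moved, 6 of these without mouse 3, 2 without 27 and 1 each without 25 and 28.

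No paired analysis was possible because each mouse has a number of its own, so the labels pair no mice across groups. The run as a block matched mice by their numbers instead, and kept 12 of 12 member calls under GA and 0 of 15 under KETA, beside the counts of all genes given above. Few mice per KETA genotype, the single awake mouse of their run, and 14 Nr4a3 UMIs in KETA DG-like nuclei limit what these counts can show.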

Other observations

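Endothelial-like nuclei were too few for a comparison, as only 9 mice had 20 or more. Among those, Nr4a1 was at 344 CPM in WT-GA mouse 3 (44 UMIs in 44 nuclei) and 313 in fAD-GA mouse 4 (40 UMIs), both of the run of mice 1 to 4, and at 87.9 and 25.4 in fAD-GA mice 11 and 20. The awake mice were at 37.2 (mouse 1, of the same run), 37.3 (mouse 10), 22.1 (mouse 19) and 0 (mouse 29), and fAD-KETA mouse 26 was at 98.2 with 2 UMIs. The high values thus came from GA mice of 1 run, and the difference was not tested.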
